A study of Rattus norvegicus with 10 samples.

Results

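The genes described here are the releasing and release-inhibiting hormones of parvocellular neurosecretory neurons, with the binding protein, receptors and a sister ligand of the corticotropin-releasing hormone (CRH) system. The list held 9 genes, Crh, Trh, Sst, Ghrh, Gnrh1, Crhbp, Crhr1, Crhr2 and Ucn3. They were found as all probe sets, control probe sets aside, whose platform annotation gave exactly 1 of these symbols. This gave 7 probe sets for 6 genes, of 31042 probe sets and 14217 gene symbols in all, and Gnrh1 had 2 of the 7. The CRH receptor genes Crhr1 and Crhr2 and the urocortin gene Ucn3 were not analysed here.

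RNA came from the hypothalamic paraventricular nucleus of male Sprague Dawley rats aged 10 to 12 weeks. The dehydrated group held 5 pools from rats after 3 days of dehydration, and the control group held 5 pools from rats labelled only as controls. Each pool combined tissue of 5 animals and was hybridised to its own Affymetrix Rat Genome 230 2.0 array, a 1-colour oligonucleotide array, so that 10 arrays stood for 50 animals. Pools were described as separate groups of animals. The series' design text names the supraoptic nucleus at 1 point, whereas the sample labels, which were followed, name the paraventricular nucleus.

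Parvocellular neurons send their axons to the median eminence, where their peptides enter the portal blood and act on the anterior pituitary. CRH drives the release of corticotropin and thereby of glucocorticoids, thyrotropin-releasing hormone (TRH) drives thyrotropin, and somatostatin inhibits growth hormone. In the rat, CRH and TRH cells of this type lie in the paraventricular nucleus, somatostatin cells in the adjoining periventricular nucleus, growth hormone-releasing hormone cells mainly in the arcuate nucleus, and gonadotropin-releasing hormone cells mainly in the preoptic area. Osmotic stimulation is known in the rat for inducing CRH in magnocellular neurons, and whole-nucleus pools hold both parvocellular and magnocellular neurons. In such bulk samples, fewer cells of a type and less RNA per cell cannot be told apart.

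Signals were tested on the scale log2(signal + 3.72) in 1 limma fit over the 18629 probe sets with a mean signal of 24.1 or more. Of the 7 probe sets, 5 were tested, 1 each for Crh, Trh, Sst, Ghrh and Crhbp, and both Gnrh1 probe sets lay under that minimum. None of the 5 changed at an adjusted p of 0.05 (0 of 5), where 0.58% of all probe sets tested did. Sst alone of the 5 (1) had an unadjusted p under 0.05, as did 12.7% of all probe sets. The differences of Crh, Trh and Sst were positive and those of Ghrh and Crhbp negative, with a median of 0.08 against 0.00 over all probe sets tested. Array medians ran from 36.5 to 39.1 in dehydrated and from 36.4 to 38.2 in control pools. Control replicate 5 had the lowest array weight, 0.385, where the other 9 arrays had 0.745 to 1.59. It also carries a sample title number apart from the unbroken runs of the 5 dehydrated pools and of control replicates 1 to 4, and no label says what these numbers stand for.

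**Figure D1:**
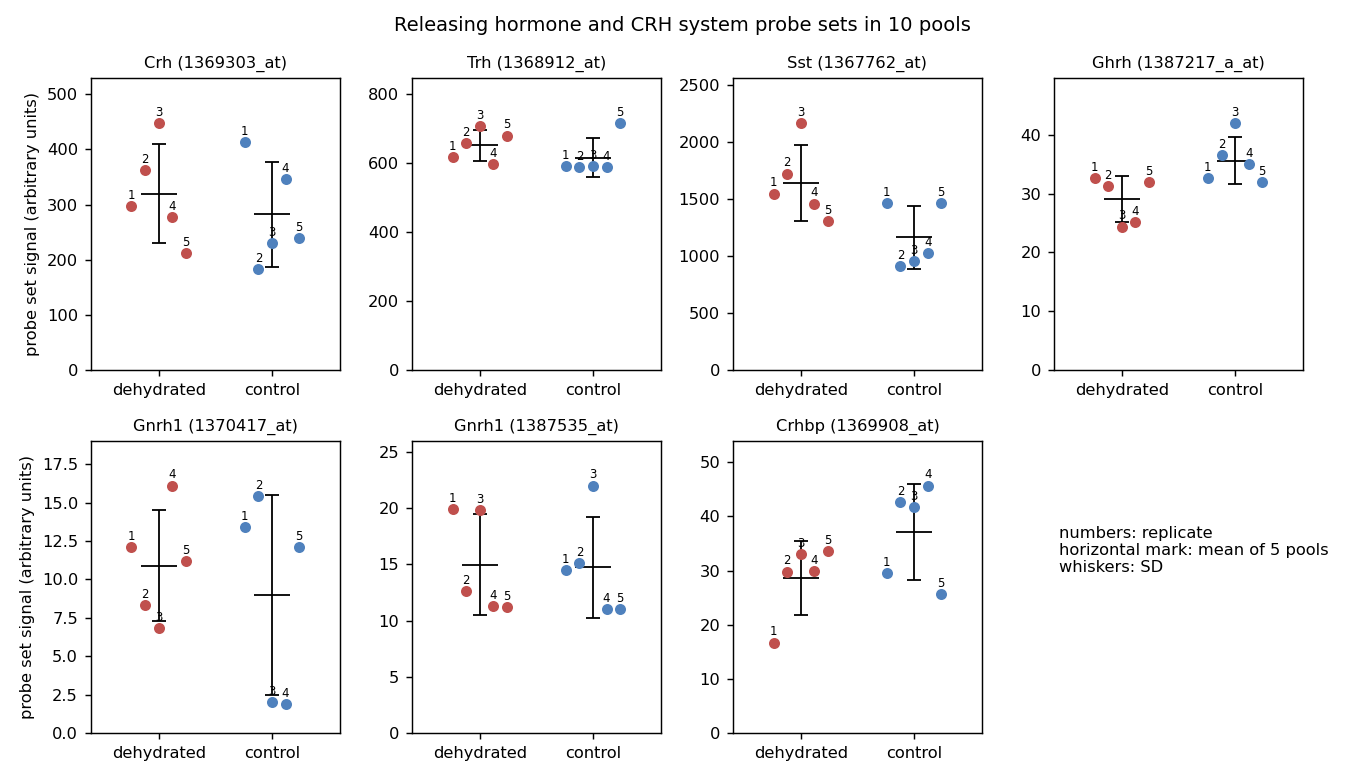
Probe set signals (arbitrary units, axis from 0) of the 7 probe sets, with 1 point per pool numbered by replicate, dehydrated pools on the left and control pools on the right of each panel. Marks and whiskers give the mean and SD of 5 pools, and the 2 groups overlap in every panel, with the mean of Sst at 1642 in dehydrated and 1165 in control pools.

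Crh encodes the peptide that starts the hypothalamic response to stress. Its probe set, 1369303_at, had signals of 298, 363, 448, 277 and 212 in dehydrated replicates 1 to 5, against 413, 183, 230, 346 and 239 in control replicates 1 to 5. The groups overlapped over most of their range, with the highest pool in the dehydrated and the lowest in the control group. The means were 320 ± 89.7 in dehydrated and 282 ± 94.3 in control pools (SD, n = 5 each). On the fitted scale the fold was 1.14, with a 95% interval from 0.853 to 1.54, so that the data allow a difference in either direction (adjusted p = 0.726 in limma). Leaving out single arrays moved the log2 difference, 0.19 with all arrays, between 0.06 without dehydrated replicate 3 or control replicate 2 and 0.35 without control replicate 1, with the adjusted p never under 0.507.

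Crhbp encodes the secreted protein that binds CRH and urocortin and keeps them from their receptors. Its signals were low in all pools, at 16.7, 29.8, 33.1, 29.9 and 33.6 in dehydrated replicates 1 to 5, against 29.6, 42.7, 41.7, 45.7 and 25.6 in control replicates 1 to 5. Control replicates 2, 3 and 4 were above every dehydrated pool, while control replicates 1 and 5 lay within the dehydrated range. The log2 difference was -0.34 ± 0.20 (standard error), with a 95% interval from -0.75 to 0.08 (adjusted p = 0.488 in limma). It was -0.18 without dehydrated replicate 1, the pool with the lowest signal.

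Of the other CRH family ligands, urocortin (Ucn) and urocortin 2 (Ucn2), only Ucn reached the minimum signal. Ucn averaged 28.2 ± 5.78 in dehydrated and 20.2 ± 4.21 in control pools (SD, n = 5 each). Its log2 difference, 0.41 ± 0.18, did not pass (adjusted p = 0.355 in limma). Its mean over all pools, 24.2, met the minimum of 24.1 only through the dehydrated pools, so that the filter itself favours a positive difference for this gene. Low signals such as those of Crhbp, Ghrh and Ucn are weak evidence of expression on these arrays, for which no detection calls were used here. Of 30 genes known from tissues other than brain, 25 lay under the minimum of 24.1 and the other 5 passed it, with mean signals up to 52.1.

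Trh encodes a precursor with several copies of the tripeptide TRH. Its probe set, 1368912_at, had signals of 616, 658, 706, 597 and 679 in dehydrated replicates 1 to 5, against 592, 589, 590, 587 and 716 in control replicates 1 to 5. Control replicates 1 to 4 lay within 5 units of each other and under every dehydrated pool, whereas control replicate 5 was the highest of all 10 pools. The fold was 1.06 with a 95% interval from 0.957 to 1.17 (log2 difference 0.08 ± 0.07, adjusted p = 0.648 in limma), the narrowest interval of the 5 tested genes. Without control replicate 5 the log2 difference was 0.14, and its adjusted p was 0.289.

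Sst encodes somatostatin, which inhibits the release of growth hormone and of thyrotropin. Its probe set, 1367762_at, had signals of 1548, 1723, 2168, 1460 and 1310 in dehydrated replicates 1 to 5, against 1464, 916, 955, 1025 and 1463 in control replicates 1 to 5. All 5 dehydrated pools were above the control median and 3 were above the highest control, while control replicates 1 and 5 reached into the dehydrated range. The means were 1642 ± 330 in dehydrated and 1165 ± 275 in control pools (SD, n = 5 each), a fold of 1.42 on the fitted scale with a 95% interval from 1.15 to 1.75. The unadjusted p was 0.00256, which ranked 358 among the 18629 probe sets, and the adjusted p was 0.133 in limma. The exact permutation p over all assignments of the 10 arrays was 0.0556 (two-sided, n = 5 each, smallest possible 0.00794).

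With array weights, which give control replicate 5 less influence, Sst passed the threshold (log2 difference 0.57, adjusted p = 0.0462), in a fit that called 1.08% of all probe sets. No single array left out brought it under the threshold, and the adjusted p then ran from 0.0534 without control replicate 5 to 0.291 without dehydrated replicate 3. In the same pools the lateral hypothalamic transcript Hcrt averaged 661 ± 377 in dehydrated pools, against 1586 ± 875 in control pools (SD, n = 5 each). That log2 difference, -1.28 ± 0.44, did not pass either (adjusted p = 0.233 in limma). Pmch, also a lateral hypothalamic transcript, differed little between the groups (log2 difference 0.02 ± 0.11, adjusted p = 0.962 in limma). Whether the Hcrt difference came from the tissue taken or from a change within cells was not tested. Its relation to the Sst difference was not tested either.

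**Figure D2:**
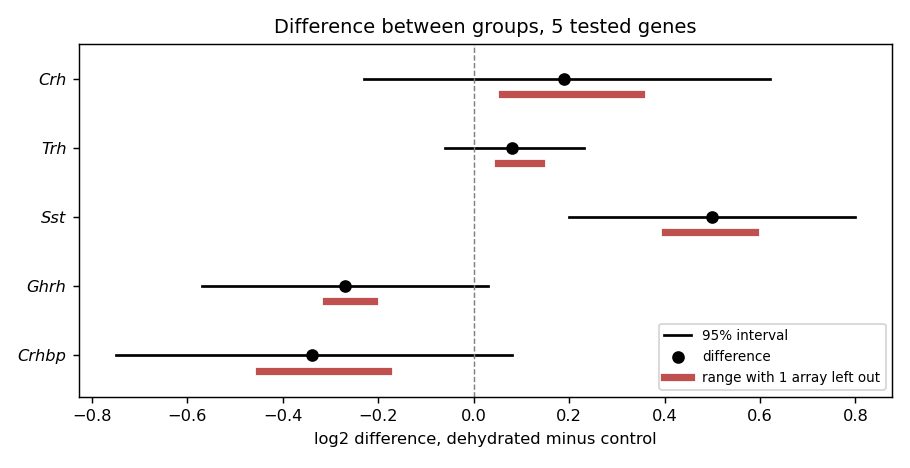
Log2 differences (dehydrated minus control) of the 5 tested genes, with black points for the fit of all 10 arrays, black lines for its 95% interval and red bars for the range when 1 array was left out. Only the interval of Sst, 0.20 to 0.80, lies wholly on one side of 0, before any adjustment for the number of probe sets.

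Somatostatin and TRH genes are textbook targets of cAMP signalling, and the stretches that carry this element are shown beside their values. RefSeq promoters of the build GRCr8 (250 bases before to 50 after the annotated start) matched 7 of the 9 genes, and Crh and Gnrh1 were not matched. They were searched on both strands for TGACGTCA, which reads the same on both, and for its variant TGACCTCA (TGAGGTCA on the other strand). TGACGTCA stood in 1.83% and the variant in 2.66% of the 33469 promoters searched, and among the 7 genes Sst had the first and Trh the second. Capitals mark the 8 motif letters in these 30-base windows, at chr11:90461537-90461566 on the plus strand for Sst and at chr4:126301779-126301808 on the minus strand for Trh.
Sst: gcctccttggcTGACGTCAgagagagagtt
Trh: cccctccccgcTGACCTCAcaggcgccgcg
The first motif letter lay at position 3 after the annotated start of Sst and at position -35 of Trh. These matches describe the letters only, since no binding was measured.

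Ghrh encodes growth hormone-releasing hormone. Its signals were 32.6, 31.3, 24.4, 25.1 and 31.9 in dehydrated replicates 1 to 5, against 32.6, 36.6, 42, 35 and 31.9 in control replicates 1 to 5. No dehydrated pool was above the control median, and the groups met at their edges, with 32.6 and 31.9 in both. The log2 difference was -0.27 ± 0.14, with a 95% interval from -0.57 to 0.03 (adjusted p = 0.448 in limma). The exact permutation p of Ghrh alone, with no adjustment, was 0.0397 (two-sided, n = 5 each).

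Gnrh1 encodes gonadotropin-releasing hormone, and both of its probe sets lay far under the array medians. Probe set 1387535_at had 19.9, 12.6, 19.8, 11.3 and 11.2 in dehydrated replicates 1 to 5, against 14.5, 15.1, 22, 11 and 11 in control replicates 1 to 5. Probe set 1370417_at ran from 6.8 to 16.1 in dehydrated pools and from 1.9 to 15.4 in control pools. The groups overlapped in both, and the exact permutation p were 0.897 for the first and 0.397 for the second (two-sided, n = 5 each).

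The pools of 1 group differed from each other in Crh and Sst far more than in most transcripts of like signal. The SD of Crh among pools within groups was 0.44 on the log2 scale, larger than that of 99.8% of the 1000 tested probe sets with the nearest mean signals, whose median was 0.12. For Sst the SD was 0.31, larger than that of 99.6% of its 1000 neighbours (median 0.10). Trh, made in the same nucleus as Crh, had an SD of 0.11, larger than that of 55.8% of its neighbours. Ghrh was among the least variable for its signal (0.16, larger than 7.9%), and Crhbp was at 0.35 (79.8%). Crh thus ranged 2.45-fold and Sst 2.37-fold over the 10 pools, against 1.22-fold for Trh.

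**Figure D3:**
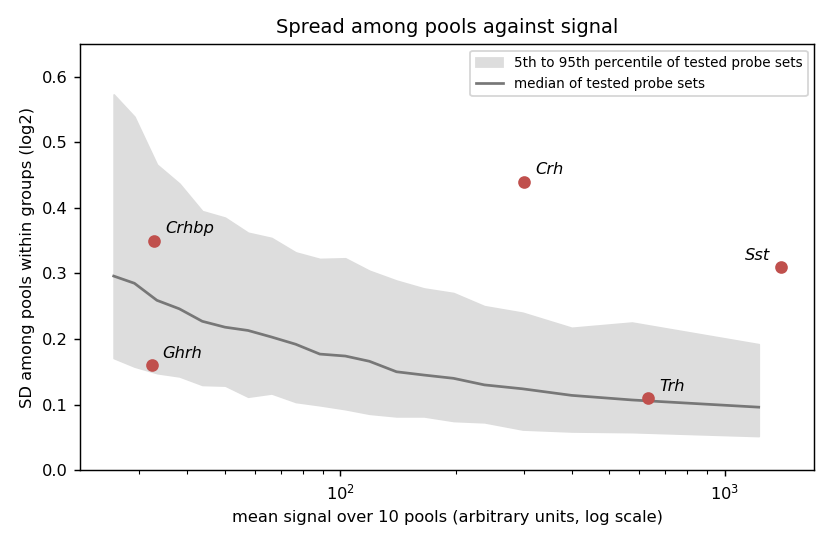
SD among pools within groups (log2) against mean signal over 10 pools (arbitrary units, log scale), with the 5 tested genes as red points, the median of all tested probe sets as a line and their 5th to 95th percentile as the grey band. Crh (0.44) and Sst (0.31) lie above the band, and Trh (0.11) lies on the line.

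With the group means taken away, Crh and Sst tended to be high in the same pools, with Pearson's r of 0.72 and Spearman's rho of 0.79 over 10 pools. Dehydrated replicate 3 and control replicate 1 were high in both genes, and dehydrated replicate 5 and control replicate 2 low in both, whereas control replicate 5 was high in Sst and not in Crh. Among 10 pairs of the 5 genes, no pair passed after adjustment (0 of 10). For Crh and Sst the exact permutation p were 0.0412 for r and 0.016 for rho, with adjusted p of 0.274 and 0.16. Without dehydrated replicate 3 and control replicate 1, the 2 pools farthest above the median of Crh, r was 0.42, and r was 0.90 without control replicate 5. Crh and Trh had an r of 0.03 and a rho of 0.04 (exact permutation p = 0.958 and 0.915, adjusted p = 0.958 and 0.953), and r was -0.13 without the same 2 pools. Sst and Ghrh, whose peptides act in opposite directions on growth hormone, had an r of -0.65 and a rho of -0.58 (exact permutation p = 0.0547 and 0.102, adjusted p = 0.274 and 0.505), and r was -0.43 without those pools. For Trh and Sst r was 0.58 and rho 0.42 (exact permutation p = 0.0979 and 0.252, adjusted p = 0.326 and 0.505), and it rested on dehydrated replicate 3 and control replicate 5, without which r was -0.04.

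The lateral hypothalamic transcripts, Pmch and Hcrt, were set beside the 5 genes after the values had been seen, so that their relations describe these pools only. Pmch, the precursor of melanin-concentrating hormone, is made by lateral hypothalamic neurons, and its group means differed little, at 3958 ± 794 in dehydrated and 3867 ± 462 in control pools (SD, n = 5 each, adjusted p = 0.962 in limma). With group means taken away, Sst and Pmch had an r of -0.85 and a rho of -0.84 over 10 pools (exact permutation p = 0.00264 and 0.00389). Adjusted over the 25 relations of the 5 genes with Avp, Oxt, Sim1, Hcrt and Pmch, a set chosen after the values were seen, the p were 0.066 for r and 0.0486 for rho, and no relation passed for r (0 of 25). Without the 2 pools farthest in Sst, dehydrated replicate 3 and control replicate 1, r was -0.77, and without control replicate 5 it was -0.84.

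Hcrt encodes the precursor of the orexins. Its signals were 282, 803, 235, 958 and 1027 in dehydrated replicates 1 to 5, against 689, 2508, 2099, 2027 and 609 in control replicates 1 to 5. With group means taken away, the log2 deviations fell into 2 clusters, from -1.23 to -0.97 in dehydrated replicates 1 and 3 and control replicates 1 and 5, and from 0.53 to 0.89 in the other 6 pools. No r over all 10 pools is therefore given for this gene. Over those 6 pools r with Hcrt was -0.90 for Sst and -0.90 for Crh, with rho of -0.94 for Sst and -0.89 for Crh. In the same pools r with Hcrt was 0.00 for Trh, -0.16 for Ghrh and 0.28 for Crhbp. No p is given because these 6 pools were picked by their Hcrt values. The 4 pools of low Hcrt were dehydrated replicates 1 and 3 and control replicates 1 and 5. There Crh deviated from its group mean by -0.06, 0.53, 0.61 and -0.17 in that order. Sst deviated by -0.06, 0.42, 0.36 and 0.36, so the equal r over 6 pools does not make the relations of Crh and Sst alike. The part of the tissue taken in each pool in these relations was not tested.

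Crh had an r of 0.65 with Sim1, a transcription factor gene needed for the neurons of the paraventricular nucleus (rho 0.55, exact permutation p = 0.0669 and 0.127, adjusted p = 0.335 and 0.566). Without dehydrated replicate 3 and control replicate 1 that r was 0.72. With Avp, the vasopressin gene of magnocellular neurons, Crh had an r of 0.18 and a rho of 0.24 (exact permutation p = 0.641 and 0.544, adjusted p = 0.729 and 0.681), and r was 0.17 without the same pools. Sst and Avp had an r of 0.35 and a rho of 0.32 (exact permutation p = 0.358 and 0.385, adjusted p = 0.596 and 0.566), and r was 0.41 without them.

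**Figure D4:**
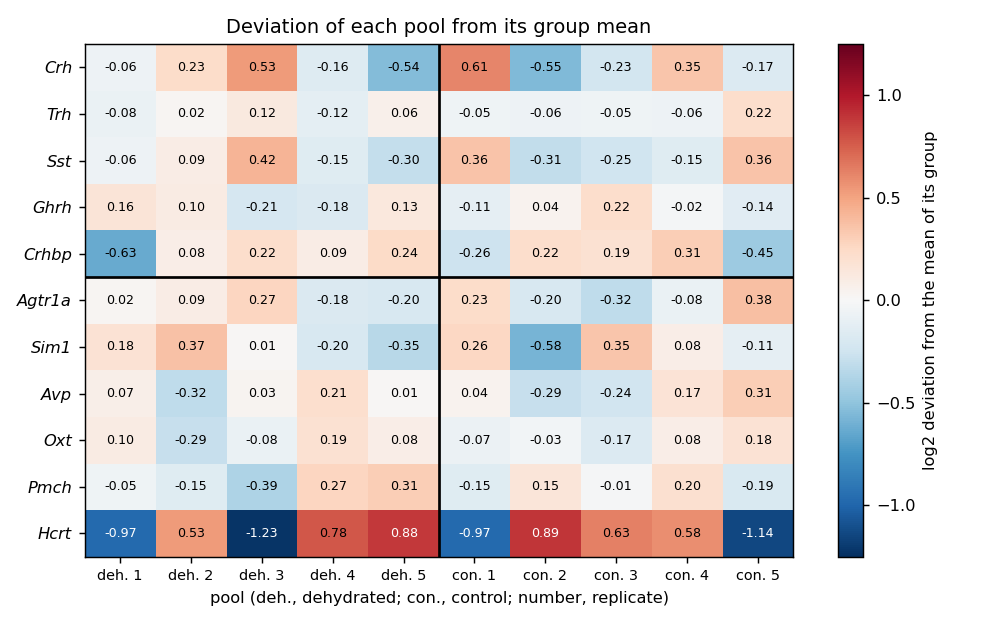
Log2 deviation of each pool from the mean of its own group, for the 5 tested genes (upper block) and 6 other genes (lower block), with dehydrated pools left and control pools right of the vertical line. Dehydrated replicate 3 is highest for Sst (0.42) and lowest for Hcrt (-1.23) and Pmch (-0.39).

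**Figure D5:**
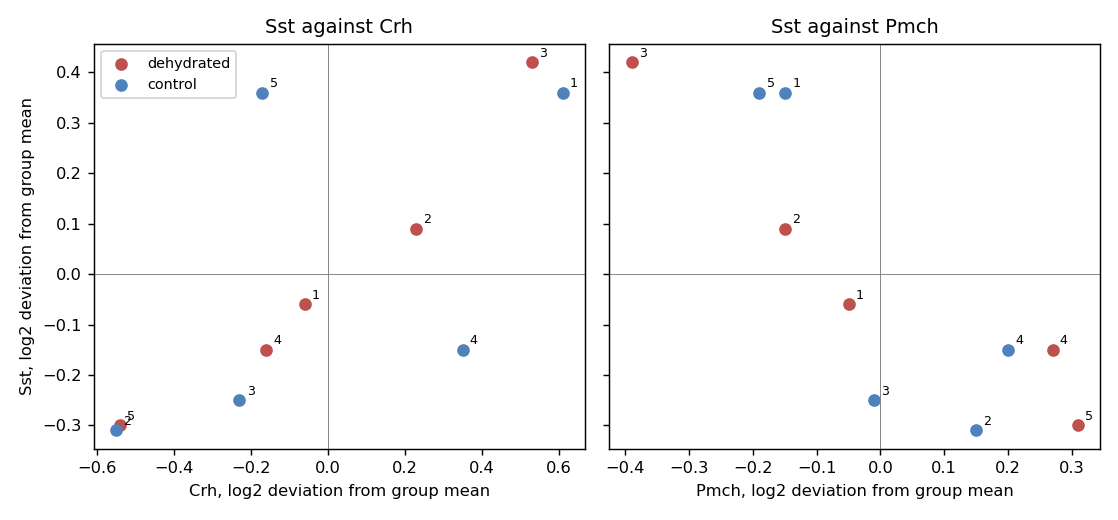
Log2 deviation of Sst from its group mean against that of Crh (left) and Pmch (right), 1 point per pool, red for dehydrated and blue for control pools, numbered by replicate. The points rise from lower left to upper right for Crh (r = 0.72) and fall from upper left to lower right for Pmch (r = -0.85).

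The tested probe sets with 1 symbol whose pool-to-pool pattern was most like each gene were taken from 13594, by Pearson's r over the 10 pools with group means removed. They were the highest of so many that no p is given. Nearest to Crh were Mzf1 (r = 0.96), Mgst3 (0.94) and Hm13 (0.93). Nearest to Sst were Emid1 (0.96), Agtr1a (0.95) and Srp54a (0.95), and nearest to Trh were Pias1 (0.96), Heyl (0.96) and Shld2 (0.95). Ctss, Arf4 and Larp6 were nearest to Ghrh (0.90 to 0.92), and Lgi4, C17h5orf24 and Rb1cc1 to Crhbp (0.93 to 0.95).

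Of these, Agtr1a encodes an angiotensin II receptor carried by parvocellular neurons. Its signals were 87.3, 91.9, 104, 75.1 and 74.2 in dehydrated replicates 1 to 5, against 67.6, 49, 44.8, 53.8 and 75.1 in control replicates 1 to 5. As for Sst, dehydrated replicate 3 was highest and control replicates 1 and 5 were the highest controls. Agtr1a was picked here for its likeness to Sst, so that this order is no separate support. Its log2 difference was 0.56 ± 0.14 (adjusted p = 0.0906 in limma), beside 0.50 ± 0.14 for Sst. Without the 2 pools farthest in Sst, r between them was 0.96. Another Agtr1a probe set, with a mean signal of 18.2, lay under the minimum.

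Other genes of these pathways came from 10 lists, of whose 131 entries 119 were measured and 92 tested. In them 3 genes rose and none fell (0), or 3.26% of those tested, against 0.58% of all probe sets. The lists were chosen with earlier results of these data known and count each gene by its brightest probe set. These shares are therefore no test of the pathways. The risers were Pam, Vgf and Pdyn. Pam, which amidates CRH, TRH and many other peptides, averaged 1331 ± 52.9 in dehydrated and 1095 ± 70.1 in control pools (SD, n = 5 each, log2 difference 0.28 ± 0.06, adjusted p = 0.0313 in limma). Its call was lost when any of 6 arrays was left out, with an adjusted p up to 0.0968 without dehydrated replicate 3, and with median centring, no filter or no variance trend.

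Pam was the sole member to pass among 13 tested genes of prohormone processing. All 13 had positive differences with a median of 0.03, where 48.8% of all probe sets tested were positive. Furin, a convertase gene, was at 0.23 ± 0.13 (adjusted p = 0.474) and Pcsk1n, a convertase inhibitor gene, at 0.11 ± 0.08 (adjusted p = 0.609, both in limma). Among 10 tested co-peptide genes Vgf and the prodynorphin gene Pdyn rose, by 0.62 ± 0.06 (adjusted p = 6.2e-05) and 0.81 ± 0.10 (adjusted p = 5.7e-04), and the other 8 did not pass in limma. Vgf averaged 972 ± 54.5 in dehydrated and 631 ± 44.4 in control pools, and Pdyn 740 ± 62.4 in dehydrated and 423 ± 69.3 in control pools (SD, n = 5 each). Both of these are also made by magnocellular neurons. The next smallest p was that of Cck, at 0.70 ± 0.16 (adjusted p = 0.0665).

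Receptors of the releasing hormones showed no call among 4 tested genes (0), all with positive differences and a median of 0.08. The TRH receptor gene Trhr averaged 151 ± 23.6 in dehydrated and 149 ± 25 in control pools (SD, n = 5 each), and the somatostatin receptor gene Sstr1 124 ± 20.2 in dehydrated and 105 ± 13.3 in control pools. The log2 differences were 0.02 ± 0.13 and 0.23 ± 0.12 (adjusted p = 0.958 and 0.449 in limma). These are the brightest probe sets of the 2 genes, and the others lay under the minimum signal. Those others were at -0.03 and 0.74 for Trhr and at -0.19 and -0.51 for Sstr1. The receptor genes Ghrhr, Gnrhr, Sstr4 and Sstr5 lay under the minimum signal.

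Enzymes that degrade these peptides had no call among 7 tested genes (0), with 6 negative differences and a median of -0.13. Trhde, the ectoenzyme gene whose product cleaves TRH, was at -0.23 ± 0.15 (adjusted p = 0.552) and Pgpep1, a pyroglutamyl peptidase gene, at -0.23 ± 0.12 (adjusted p = 0.434, both in limma). Thyroid hormone feedback genes likewise had no call among 6 tested (0), with a median of 0.00. The thyroid hormone receptor gene Thra was at -0.15 ± 0.13 (adjusted p = 0.667).

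The glucocorticoid feedback list had no call among 12 tested genes (0), with 4 positive and 8 negative differences. The unadjusted limma p was under 0.05 for 4 of the 12, beside 12.7% of all probe sets tested. Fkbp5, a cochaperone gene induced by glucocorticoids, averaged 94.1 ± 5.1 in dehydrated and 73.4 ± 9.97 in control pools (SD, n = 5 each, log2 difference 0.35 ± 0.11, adjusted p = 0.163 in limma). Sgk1 was at 0.45 ± 0.15 (adjusted p = 0.214) and Tsc22d3, also known as a glucocorticoid-induced gene, at -0.23 ± 0.08 (adjusted p = 0.217).

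Genes of cAMP and CREB signalling had no call among 23 tested (0), with 11 positive and 12 negative differences. The unadjusted limma p was under 0.05 for 6 of the 23, beside 12.7% of all probe sets tested. The phosphodiesterase gene Pde4a was at -0.74 ± 0.18 (adjusted p = 0.0797) and the adenylyl cyclase gene Adcy8 at -0.41 ± 0.11 (adjusted p = 0.103, both in limma). Genes of inputs to these neurons had no call among 13 tested (0), with 8 positive differences and a median of 0.12. The unadjusted p was under 0.05 for 4 of the 13, beside the same 12.7% of all probe sets tested. After Agtr1a the smallest p were those of the GABA receptor gene Gabra2, at 0.52 ± 0.14 (adjusted p = 0.108), and the cannabinoid receptor gene Cnr1, at 0.24 ± 0.07 (adjusted p = 0.15).

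The lineage factors had no call among 3 tested genes (0). Sim1 averaged 79.2 ± 16.5 in dehydrated and 62.1 ± 15.4 in control pools (SD, n = 5 each, adjusted p = 0.414 in limma). Otp, a factor gene that parvocellular neurons need for their development, lay under the minimum signal, with 18.8, 9.3, 14.3, 14.6 and 14.2 in dehydrated replicates 1 to 5, against 6.6, 5.9, 7, 1.1 and 7.7 in control replicates 1 to 5. Its groups did not overlap (exact permutation p = 0.00794, two-sided, n = 5 each, the smallest possible). The groups did not overlap for 3.36% of the tested probe sets either, and that share was not counted for probe sets under the minimum, such as that of Otp. Avp and Oxt, the defining genes of the magnocellular part, were present in all pools, Avp at 3930 to 5698 in dehydrated and 2853 to 4334 in control pools and Oxt at 3953 to 5499 in dehydrated and 3631 to 4626 in control pools.

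Marker lists of other cells and regions gave 1 call among 73 tested genes in 15 lists, or 1.37%, against 0.58% of all probe sets tested. The summed signal of 4 lateral and posterior hypothalamic genes ran from 3264 to 5922 in dehydrated and from 4043 to 6877 in control pools, with 3 of 4 differences negative. All 11 oligodendrocyte genes had negative differences (median -0.28), as did 9543 of all 18629 probe sets tested. The unadjusted limma p was under 0.05 for 8 of these 11 genes, beside 12.7% of all probe sets tested. The 11 genes summed to 7333 to 7665 in dehydrated and to 7910 to 9570 in control pools. Ermn was the one that fell (-0.63 ± 0.12, adjusted p = 0.0255 in limma, up to 0.0792 without control replicate 2). Another tested Ermn probe set, with a mean signal of 58.1, did not pass (-0.30, adjusted p = 0.397 in limma). The call of Ermn was lost when any of 3 arrays was left out, and with no filter or no variance trend. The arcuate markers, of which Pomc lay under the minimum signal, summed to 77.6 to 140 in dehydrated and 80.9 to 137 in control pools, beside the low Ghrh. The 6 measured pituitary markers, of which 3 were tested, summed to 841 in dehydrated replicate 1. Their sums were 100 to 138 in the other dehydrated and 108 to 174 in the control pools. Prl, Tshb and Pou1f1 lay under the minimum signal, and Gh1, the growth hormone gene, ranged 130-fold over the 10 pools. Without dehydrated replicate 1, which also had the lowest Crhbp, the log2 differences were 0.21 for Crh, 0.10 for Trh, 0.52 for Sst, -0.31 for Ghrh and -0.18 for Crhbp, with adjusted p from 0.203 to 0.753 in limma. The part of these lists in the values of the releasing hormone genes was not tested.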

How the data were processed

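The authors' deposited values were linear signals, 1 per probe set and array, made with GCOS 1.2 as the submitters' processing notes record. How the signal was summarised over probes is not given in the sources used here, and no detection calls were used. The trimmed mean was 100 on all 10 arrays (2% off each end), so arrays had been scaled to a common level. Whether background remains in them at the low end, which would understate differences of dim probe sets, is not given either. The 3.72 added to each signal before the log does lower such differences. For Gnrh1 probe set 1370417_at the log2 difference was 0.37 with it and 0.58 with 1 added instead. The number of arrays limits the precision.

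Control probe sets (57) were left out, and the 9 genes were matched by the symbols of the platform annotation. For the gene lists and the most similar probe sets, those symbols were updated to the RefSeq symbol of the same Entrez identifier. Signals were used as log2(signal + 3.72), the pseudocount being 0.1 of the median array median. Probe sets at or above the 40th percentile of mean signal were fitted with limma 3.58.1 (R 4.3.3; lmFit, eBayes with trend, two-sided, Benjamini-Hochberg over all 18629, threshold 0.05). Values after ± are SD for signals and standard errors for log2 differences. In simulated arrays of this comparison (18629 probe sets) the fit recovered 29.2%, 84.4% and 99.1% of true log2 differences of 0.4, 0.8 and 1.6, and 6.33% of its calls were false. The changed probe sets were drawn at random, so these rates are averages. Crh and Sst varied more among pools (SD 0.44 and 0.31) than most probe sets of like signal, and no rate was computed for them.

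Groups came from the sample labels. Replicate numbers follow accession order only and pair nothing. No label names a batch. Sample title numbers form 1 run per group, with control replicate 5 apart, so numbering and group cannot be told apart, and results are given without that array. Correlations used exact permutation within groups (14400 arrangements). A gene of a list was counted by its brightest probe set, and up to 3 tested members per list with the smallest p were eligible to be named, with all probe sets of the 9 genes, the 3 most similar probe sets per gene, and Avp, Oxt, Hcrt, Pmch, Otp and Sim1. Genes and lists were chosen with earlier results of these data known. Alternatives were other scalings, pseudocounts, filters, variance models, array weights and arrays left out.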

Additional observations from a re-analysis of the deposited data

Results flagged for a closer look

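In 2 of the 14 sets of 5 pools formed by 7 probe sets and 2 groups, 1 pool stood far from the others by Dixon's gap test, which flags about 5% of such sets by chance. Trh had a signal of 716 in control replicate 5, where the nearest other control pool had 592, a gap of 0.96 of the group's range. Crhbp had a signal of 16.7 in dehydrated replicate 1, where the nearest other dehydrated pool had 29.8, a gap of 0.78 of the range. Control replicate 5 also had the lowest array weight (0.385), and dehydrated replicate 1 had the next lowest (0.745) and the highest summed pituitary markers (841).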

How the results depend on the processing

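No call among the 5 tested genes depended on an array left out (0 called in each of the 10 fits), and 1 alternative, array weights, called 1 of them, Sst (0.57, adjusted p = 0.0462). Ghrh passed only in its own exact permutation test, unadjusted (-0.27, p = 0.0397). Directions of the 5 were kept in all alternatives run. The dim Gnrh1 probe set 1387535_at, at 0.02, turned to -0.08 and -0.07 without dehydrated replicate 1 or 3 and to -0.06 without control replicate 4 or 5, and reached 0.15 without control replicate 3. Over all probe sets 108 changed, against 64 with no filter, 45 without the variance trend, 201 with array weights and 289 without both dehydrated replicate 2 and control replicate 5. With 1 array left out the count ran from 46 to 148. With the filter at the 60th percentile Ghrh and Crhbp were not tested. No paired analysis was possible because the labels carry no replicate numbers. Low signal limits Ghrh, Crhbp and Gnrh1.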
